A study of Mus musculus with 2 samples.

Results

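Connecting tubule nuclei were taken from single-nucleus RNA sequencing of mouse kidney and compared between a 5/6 nephrectomy library and a sham library. They numbered 401 of the 5563 barcodes that passed the depth and mitochondrial filters, 230 in the nephrectomy library and 171 in the sham library. The mice of both groups were male, carried the genotype written T1+/+ in the labels, and were 11 weeks old at surgery. In the nephrectomy group the right kidney was taken out, the poles of the left kidney were tied off 1 week later, and tissue was collected 4 weeks after surgery. In the sham group both flanks were opened, the kidneys were exposed, and the flanks were sutured again. Each group was 1 library of frozen kidney on the 10x Genomics Chromium system. The labels do not give the number of mice behind a library, the part of the kidney that was taken or the hour of collection.

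The connecting tubule joins the distal convoluted tubule to the collecting duct. Its cells take up calcium through the apical channel TRPV5, carry it across the cell on calbindin, and pass it to the blood side by the sodium-calcium exchanger NCX1, the product of Slc8a1. They also reabsorb sodium through the epithelial sodium channel under the control of aldosterone, and they are a main source of klotho and tissue kallikrein in the kidney.

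A member nucleus had at least 1000 unique molecular identifiers (UMIs, 1 for each captured transcript), at most 10% mitochondrial UMIs, and at least 0.2% of its UMIs from Slc8a1, Egfem1, Calb1 and Trpv5, with at least 2 of these 4 genes detected. Slc8a1, Egfem1 and Calb1 together had to reach Slc12a3 and Trpm6, markers of the distal convoluted tubule. Slc8a1 and Calb1 had to exceed Aqp2 and Aqp3, markers of collecting duct principal cells, and Slc12a1, a marker of the thick ascending limb. The proximal tubule genes Slc34a1, Slc13a1 and Slc5a12 could take at most 0.1% of UMIs. The marker share alone left 427 nephrectomy and 328 sham nuclei. The next 4 conditions left 315 nephrectomy and 248 sham nuclei, and the limit on proximal tubule genes left the final 230 and 171. All 4 markers were detected in 104 nephrectomy and 49 sham members, and only 2 of them in 53 nephrectomy and 64 sham members.

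Sequencing depth differed between the libraries. The deposited nephrectomy library held 28284727 UMIs in 3299 barcodes, and the sham library 21365116 UMIs in 3084 barcodes. Members held 2437410 UMIs in the nephrectomy library, with a median of 9677.5 per nucleus, and 1331122 UMIs in the sham library, with a median of 7126. The libraries shared 2 barcodes, of which 0 were members. All intervals below are 95% intervals for counting error only, and UMIs of 1 library are not independent replicates of a condition. With 1 library per group, no difference carries a replicate check or a p-value.

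Members made up 7.91% of kept nephrectomy barcodes (6.95 to 8.95) and 6.44% of kept sham barcodes (5.54 to 7.44). The difference was 1.47 percentage points, with an interval of 0.107 to 2.82. The interval included 0 with a marker share of at least 0.4% (-0.131 to 2.43), with at least 2000 UMIs (-0.0457 to 3.01) and without the limit on proximal tubule genes (-0.0972 to 3.07). The share of an epithelial type depends on which part of the kidney entered the library, and that part cannot be told apart from surgery here.

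Members were selected on the measured UMIs of the 4 marker genes and of the genes of neighbouring segments, so the levels of these genes are a description. Slc8a1 (mm10 chromosome 17, 81373105 to 81738377, minus strand) alone supplied 6.10% of all member UMIs in the nephrectomy library and 5.41% in the sham library. Calb1, which codes for calbindin, had 4045 UMIs per 1000000 member UMIs (CPM) in nephrectomy nuclei and 4013 CPM in sham nuclei. Trpv5 had 265 CPM in nephrectomy nuclei and 197 CPM in sham nuclei. Egfem1 had 4513 CPM in nephrectomy nuclei and 2424 CPM in sham nuclei, and was found in 136 nephrectomy and 76 sham members. The summed marker share of a member ran from 0.2% to 21.2% in the nephrectomy library, with a median of 5.22%. In the sham library it ran from 0.202% to 15.6%, with a median of 5.18%.

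Just inside, with a marker share of 0.2% to 0.4%, stood 30 nephrectomy and 19 sham nuclei. Just outside, with 0.1% to 0.2% and every other condition met, stood 36 nephrectomy and 20 sham nuclei. Fxyd4, which codes for a regulator of the sodium pump in the collecting duct, had 849 CPM just inside and 497 CPM just outside in the nephrectomy library. In the sham library it had 549 CPM just inside and 658 CPM just outside. Nuclei on both sides of the threshold carried this collecting duct gene, which the rule did not use.

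Genes outside the rule were ranked by the lower of their 2 ratios, 1 per library, of member CPM to the CPM of all other kept barcodes. The 15 highest included Scnn1b and Scnn1g, the beta and gamma subunits of the epithelial sodium channel, and Hsd11b2, the enzyme that shields the mineralocorticoid receptor from glucocorticoids. Scnn1b had 460 CPM in nephrectomy members and 491 CPM in sham members, while other barcodes had 24.9 CPM in the nephrectomy library and 22.3 CPM in the sham library. Atp2b2, a plasma membrane calcium pump, had 132 CPM in nephrectomy and 169 CPM in sham members, against 6.18 CPM and 7.76 CPM in the other nephrectomy and sham barcodes. Gata3, a transcription factor of the distal nephron and collecting duct, and Rhcg, an ammonia channel, were also among the 15. Several of these genes were as high in the 72 barcodes of a principal cell rule (at least 0.1% of UMIs from Aqp2, Aqp3 and Fxyd4, outside the members). Scnn1b had 680 CPM in nephrectomy and 629 CPM in sham barcodes of that rule, Hsd11b2 had 389 CPM and 552 CPM, and Rhcg had 756 CPM and 600.5 CPM. Others were lower there, such as Slc2a9, a urate transporter gene, with 0 CPM in nephrectomy and 4.804 CPM in sham barcodes of that rule, against 374 CPM in nephrectomy and 351 CPM in sham members. Frmpd4 and Phactr1 were the most deeply counted of the 15, with 5309 and 12502 nephrectomy UMIs and 2106 and 6799 sham UMIs. Other known genes of the segment that the rule did not use were present as well. S100g, the intestinal-type calbindin, had 1102 CPM in nephrectomy and 1188 CPM in sham members, and Klk1, tissue kallikrein, had 465 CPM in nephrectomy and 862 CPM in sham members.

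**Figure D1:**
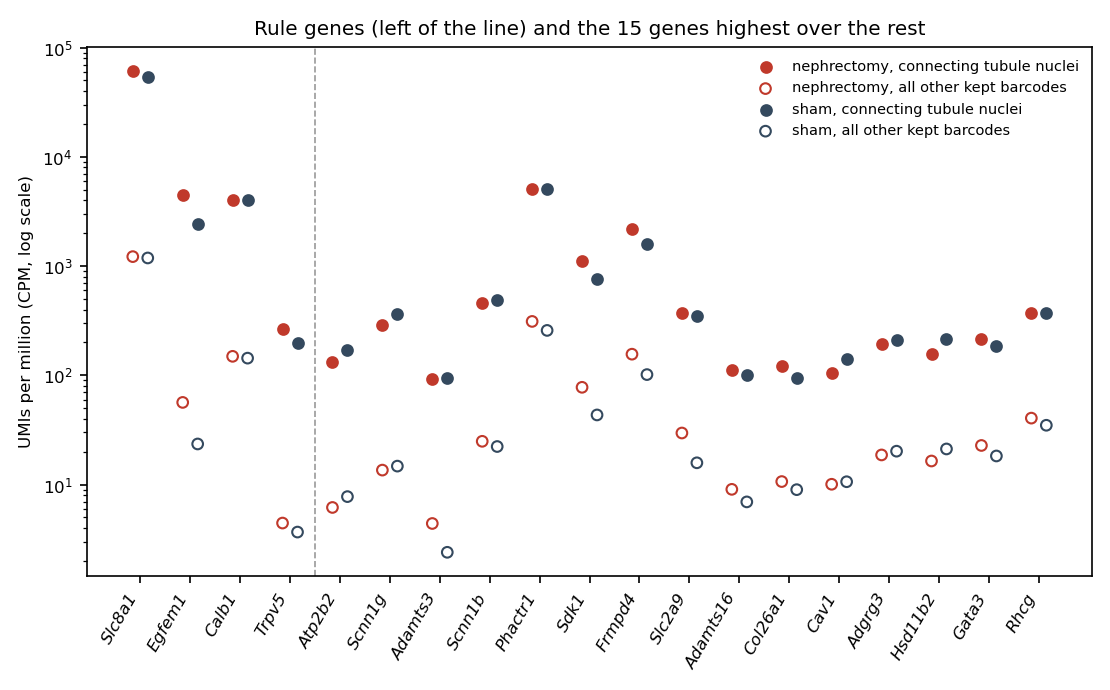
Summed UMIs per 1000000 (CPM, log scale) of the 4 rule genes and of the 15 genes highest over the rest, in connecting tubule nuclei (filled) and in all other kept barcodes (open) of each library. Every filled point lies above the open point of its library; the rule chose the left 4 genes and the ranking chose the others, so the gap is a description.

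The members were not uniform, and a split chosen after seeing the values divided them into 3 ranges. Nuclei with at least 0.1% of UMIs from Slc12a3, the thiazide-sensitive sodium chloride cotransporter, are called Slc12a3-bearing. They numbered 70 in the nephrectomy library and 59 in the sham library, or 30.4% and 34.5% of members, a difference of -4.07 points (-13.3 to 5.09). Of the others, nuclei with at least 1% of UMIs from Slc8a1 are called Slc8a1-rich and numbered 104 in the nephrectomy library and 72 in the sham library, or 45.2% and 42.1% of members. The remaining Slc8a1-poor nuclei numbered 56 in the nephrectomy library and 40 in the sham library, or 24.3% of nephrectomy and 23.4% of sham members. No shift between the ranges was detectable at this number of nuclei. By UMIs, the Slc12a3-bearing range was a smaller part of the nephrectomy members. It held 802325 of 2437410 nephrectomy and 545836 of 1331122 sham member UMIs, so genes confined to it weigh less in the nephrectomy sums. Only 4 nephrectomy and 4 sham nuclei lay between 0.05% and 0.3% Slc12a3, while 37 nephrectomy and 23 sham nuclei lay between 0.5% and 2% Slc8a1, so the second boundary ran through a continuum. Median depth was 10785 UMIs in nephrectomy and 9071 in sham nuclei of the Slc12a3-bearing range, and 7128 and 5653.5 in nephrectomy and sham nuclei of the Slc8a1-poor range.

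Slc12a3-bearing nuclei combined distal convoluted tubule genes with the highest Slc8a1 share. Slc12a3 had 9621 CPM in these nephrectomy nuclei and 10172 CPM in the sham ones, and Slc8a1 had 84281 CPM and 74152 CPM. Egf, the precursor of epidermal growth factor, had 936 CPM in nephrectomy and 1695 CPM in sham Slc12a3-bearing nuclei, against 33.2 CPM and 52.9 CPM in nephrectomy and sham Slc8a1-rich nuclei. Hsd11b2 was nearly missing, at 8.73 CPM in nephrectomy and 14.7 CPM in sham Slc12a3-bearing nuclei. Of 3703 genes with at least 50 UMIs in each library over both ranges, 65 (1.76%) were at least 2-fold higher in Slc12a3-bearing than in Slc8a1-rich nuclei of both libraries. Another 98 (2.65%) were at least 2-fold lower in both, and 0 went opposite ways. Between Slc12a3-bearing and Slc8a1-poor nuclei, 117 of 2950 genes (3.97%) were at least 2-fold higher and 195 (6.61%) at least 2-fold lower in both libraries. The genes higher than in Slc8a1-rich nuclei included Esrrb, an estrogen-related receptor gene, Stk32b and Ryr2, and the lower genes included Gpc5, Kif26b, Cav1 and Gata2; these were picked after their values were seen.

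The rule genes Trpv5 and Egfem1 were highest in Slc8a1-rich nuclei. Trpv5 had 401 CPM in nephrectomy and 282 CPM in sham Slc8a1-rich nuclei, and Egfem1 had 7990 CPM and 4969 CPM. Scnn1g had 381 CPM in nephrectomy and 588 CPM in sham nuclei of this range. Slc12a3 was at 46.0 CPM in the nephrectomy library and 52.9 CPM in the sham library. Of the 15 genes ranked above, Atp2b2, Scnn1b, Frmpd4, Adamts16, Col26a1, Cav1, Adgrg3, Hsd11b2, Gata3 and Rhcg were lower in Slc8a1-rich than in Slc8a1-poor nuclei of both libraries. Hsd11b2 had 381 CPM in nephrectomy and 445 CPM in sham Slc8a1-poor nuclei, against 171 CPM in nephrectomy and 316 CPM in sham Slc8a1-rich nuclei.

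Slc8a1-poor nuclei went partly against the label. Slc8a1 had 3915 CPM in nephrectomy and 3931 CPM in sham nuclei of this range, and Trpv5 had 104 CPM and 82.0 CPM. Fxyd4 had 591 CPM in nephrectomy and 344 CPM in sham nuclei of this range, and Aqp2, the vasopressin-regulated water channel, had 342 CPM and 199 CPM. Scnn1b was at 617 CPM in the nephrectomy library and 800 CPM in the sham library. In the barcodes of the principal cell rule (30 nephrectomy, 42 sham), Aqp2 had 809 CPM in nephrectomy and 677 CPM in sham nuclei. That rule selected on Aqp2 and the member rule limited it, so the higher level there is a description. The genes leading this range were Mgat4c, Chst9 and Il1rapl1, chosen after their values were seen. Mgat4c had 2839 CPM in nephrectomy and 1319 CPM in sham Slc8a1-poor nuclei, against 57.1 CPM and 1.89 CPM in nephrectomy and sham Slc8a1-rich nuclei. Of 3045 genes, 78 (2.56%) were at least 2-fold higher in Slc8a1-poor than in Slc8a1-rich nuclei of both libraries, 42 (1.38%) at least 2-fold lower, and 2 went opposite ways.

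**Figure D2:**
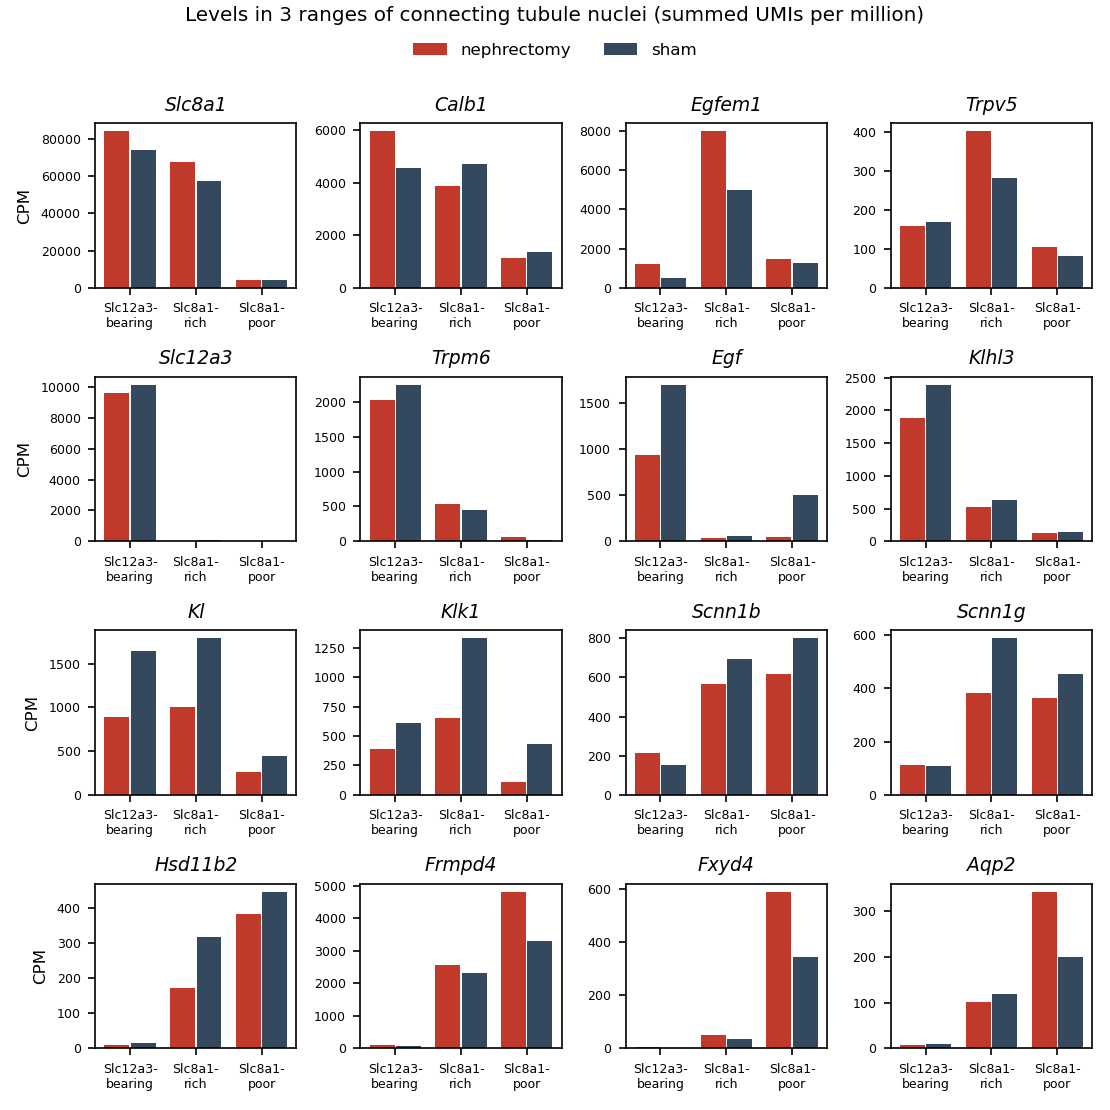
Summed UMIs per 1000000 (CPM, linear axes that start at 0) of 16 genes in the 3 ranges of connecting tubule nuclei, nephrectomy bars left of sham bars. Egf follows Slc12a3, and Klhl3 is lower in the Slc8a1-poor than in the Slc8a1-rich range of both libraries. Trpv5 and Egfem1 peak in the Slc8a1-rich range, and Fxyd4, Aqp2 and Frmpd4 peak in the Slc8a1-poor range of both libraries.

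To compare the libraries, UMIs were summed over members, and the CPM ratio of nephrectomy over sham was taken for the 8142 genes with at least 50 UMIs over both libraries. Genes whose ratio reached 1.5-fold in either direction were called. On this rule 593 genes (7.28%) were higher in nephrectomy members and 753 (9.25%) were lower. These shares over all tested genes are the background for the counts of every gene list below. No list was tested against them. Over these 8142 genes the log2 ratio had a median of -0.01 and quartiles of -0.27 and 0.24. With normalization by the trimmed mean of M values (TMM) the counts were 719 higher and 624 lower, so which direction held more genes depended on the scaling.

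Of the genes of calcium transport and the hormones that act on it, the called ones were all lower in nephrectomy members. Of the 24 genes listed, 15 could be tested, of which 0 were called higher and 5 lower, with a median log2 ratio of -0.29. That median was -0.07 in Slc12a3-bearing, -0.38 in Slc8a1-rich and -0.75 in Slc8a1-poor nuclei. Outside the members it was -0.58 in distal convoluted tubule nuclei and -0.13 in all other barcodes. Kl, which codes for klotho, the co-receptor of the phosphate hormone FGF23 (chromosome 5, 150952607 to 150993817), had 827 CPM in nephrectomy members and 1470 CPM in sham members, a ratio of 0.563 (0.528 to 0.599). The Kl ratio was 0.544 in Slc12a3-bearing, 0.563 in Slc8a1-rich and 0.569 in Slc8a1-poor nuclei, and 0.642 in 206 distal convoluted tubule nuclei outside the members. Kl was thus lower by a similar factor in every range. Klk1 (chromosome 7, 44225360 to 44229618), which has close paralogs, had 465 CPM in nephrectomy and 862 CPM in sham members, a ratio of 0.539 (0.496 to 0.586). Casr, the calcium-sensing receptor, had 43.1 CPM in nephrectomy and 79.6 CPM in sham members, a ratio of 0.541 (0.409 to 0.715), but without the Slc8a1-poor nuclei its ratio was 0.703. S100a10, an annexin partner that helps place TRPV5 at the membrane, had 31 nephrectomy and 33 sham UMIs, a ratio of 0.513 (0.304 to 0.864).

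The intracellular carrier and the calcium pumps were not called. S100g had a ratio of 0.927 (0.871 to 0.987), Atp2b1 a ratio of 0.910 (0.769 to 1.08) and Atp2b4, both calcium pumps, a ratio of 0.698 (0.598 to 0.816). Vdr, the vitamin D receptor, had 550 CPM in nephrectomy and 657 CPM in sham members, a ratio of 0.837 (0.768 to 0.912). Pth1r, the parathyroid hormone receptor, had 107 CPM in nephrectomy and 126 CPM in sham members. Cyp24a1, the enzyme that degrades vitamin D hormone, had 25 nephrectomy and 8 sham UMIs in members and fell under the minimum. Trpv6, a second epithelial calcium channel, had 31 nephrectomy and 11 sham UMIs.

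Genes of the aldosterone response and the sodium channel were mostly not called. All 22 listed genes could be tested, of which 2 were called higher and 0 lower, with a median log2 ratio of 0.08. The channel subunits Scnn1a, Scnn1b and Scnn1g had ratios of 1.03 (0.880 to 1.199), 0.938 (0.851 to 1.03) and 0.794 (0.706 to 0.893). Nr3c2, the mineralocorticoid receptor, had 2154 CPM in nephrectomy and 1769 CPM in sham members, a ratio of 1.22 (1.16 to 1.28). Hsd11b2 had 157 CPM in nephrectomy and 217 CPM in sham members, a ratio of 0.724 (0.620 to 0.846). Nedd4l, the ubiquitin ligase that removes the channel from the membrane, had a ratio of 1.29 (1.2 to 1.39), and Sgk1, the kinase that opposes it, a ratio of 1.05 (0.836 to 1.33). Among the called genes was Fxyd4, with 138 CPM in nephrectomy and 81.1 CPM in sham members (ratio 1.70, 1.36 to 2.13). Fxyd4 UMIs lay mostly in the Slc8a1-poor range, and in barcodes of the principal cell rule the Fxyd4 ratio was 0.993, though the rule for those barcodes used Fxyd4.

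**Figure D3:**
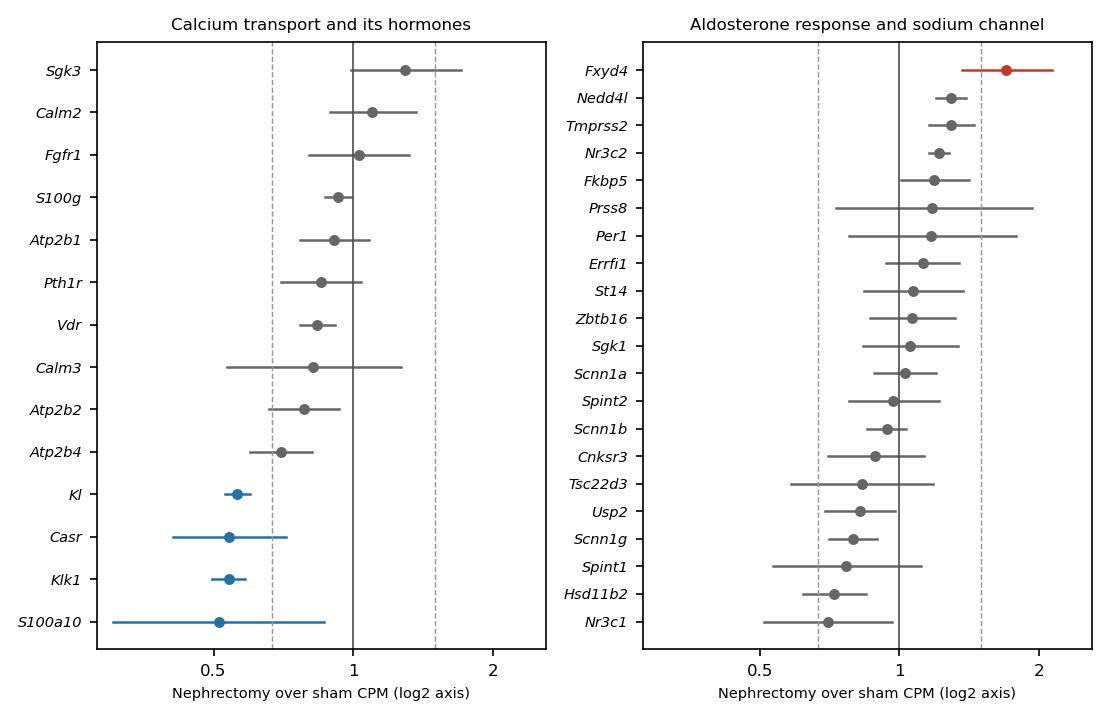
Ratio of nephrectomy over sham CPM (log2 axis) in connecting tubule nuclei for tested genes of both transport lists, with 95% counting intervals. Blue marks genes at least 1.5-fold lower and red genes at least 1.5-fold higher; the calcium panel has 4 blue and 0 red points, the aldosterone panel 0 blue and 1 red.

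Potassium channels and the sodium pump gave 1 called gene among the 11 tested of 22 listed, and a median log2 ratio of -0.10. Kcnj1, the secretory potassium channel ROMK, had 335 CPM in nephrectomy and 412 CPM in sham members, a ratio of 0.813 (0.729 to 0.907). Fxyd2, the gamma subunit of the sodium pump, had a ratio of 0.683 (0.633 to 0.738), just short of the call. Kcnj15 was the called gene at 1.56 (1.06 to 2.35). Its ratio was 1.34 without the nucleus of each library richest in it, and 1.13 without the barcodes of highest doublet score.

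The WNK pathway tunes salt transport in this part of the nephron through the kinases WNK1 and WNK4. Of 17 tested genes of the WNK and distal convoluted tubule list, 0 were called higher and 3 lower, with a median log2 ratio of -0.27. Wnk1 had 4236 CPM in nephrectomy and 5755 CPM in sham members, a ratio of 0.736 (0.715 to 0.758), and Wnk4 had 236 CPM and 325 CPM. Egf had 333 CPM in nephrectomy and 812 CPM in sham members, a ratio of 0.410 (0.374 to 0.449). In distal convoluted tubule nuclei outside the members, Egf had 5425 CPM in the nephrectomy and 4145 CPM in the sham library, a ratio of 1.31. Cnnm2, which takes part in magnesium transport, had a ratio of 0.647 (0.591 to 0.708). Umod, uromodulin of the thick ascending limb, had 65.6 CPM in nephrectomy and 156 CPM in sham members, and was also lower in all other barcodes, at 395 CPM in the nephrectomy and 615 CPM in the sham library. Its ratio in members with no Slc12a3 and no Trpm6 UMI was 0.911. With free RNA subtracted the ratio was 0.255 for Egf and 0.185 for Umod. That subtraction took the sum of all deposited barcodes as the free RNA profile, without empty droplets.

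Vasopressin and cyclic AMP genes gave 1 higher and 1 lower call among 14 tested, with a median log2 ratio of -0.00. Avpr2, the vasopressin receptor of the tubule, had 12.7 CPM in nephrectomy and 30.8 CPM in sham members, from 31 and 41 UMIs, a ratio of 0.413 (0.250 to 0.675). Akap7, an anchor of protein kinase A, had 74.7 CPM in nephrectomy and 49.6 CPM in sham members (ratio 1.51, 1.13 to 2.03).

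Some genes of the intercalated cell list came from few members. Slc26a4, pendrin of type B cells, had 51 nephrectomy UMIs in 8 nuclei and 84 sham UMIs in 7 nuclei, a ratio of 0.332 that turned to 1.19 without the limit on proximal tubule genes. Slc4a9, a bicarbonate transporter of the same cells, had 181 UMIs in 23 nephrectomy nuclei and 102 UMIs in 16 sham nuclei. Of the 12 tested genes on this list 0 were called higher and 3 lower. The summed level of the list was 1546 CPM in nephrectomy and 1717 CPM in sham members. All other nephrectomy and sham barcodes had 1821 CPM and 1401 CPM. The median log2 ratio was -0.18 in members and 0.45 in all other barcodes. Whether doublets or mixed identities carry these UMIs was not tested.

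Most transcription factors of the distal nephron were not called, with 1 higher and 1 lower call among 22 tested and a median log2 ratio of -0.05. Esrrg had 5236 CPM in nephrectomy and 5081 CPM in sham members, and Tfcp2l1, a regulator of distal cell identity, had 1122 CPM and 1134 CPM. Gata3 had 215 CPM in nephrectomy and 187 CPM in sham members, a ratio of 1.15 (0.987 to 1.34). Ehf, an epithelial ETS factor, had 73.0 CPM in nephrectomy and 45.1 CPM in sham members (ratio 1.62, 1.203 to 2.21), but a ratio of 0.790 after thinning to 1000 UMIs. Esrrb had a ratio of 0.653 (0.560 to 0.762), with its UMIs mostly in Slc12a3-bearing nuclei. It had 431 CPM in nephrectomy and 542 CPM in sham nuclei of that range. In Slc8a1-rich nuclei it had 14.5 CPM in the nephrectomy and 15.1 CPM in the sham library. How far the weight of the Slc12a3-bearing range enters the Esrrb ratio was not tested. Pax2, a renal developmental factor, had 423 CPM in nephrectomy and 283 CPM in sham members, a ratio of 1.497 (1.33 to 1.69) that fell just short of the call. Its ratio in distal convoluted tubule nuclei was 0.842.

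Junction genes gave 3 higher and 1 lower call among 16 tested, with a median log2 ratio of 0.07. The tight junction genes Marveld2 and Marveld3 had ratios of 1.59 (1.07 to 2.42) and 3.07 (1.43 to 7.55), the second from 45 nephrectomy and 8 sham UMIs. Magi2, a scaffold gene that podocytes also express, had 1922 CPM in nephrectomy and 1185 CPM in sham members. Its ratio was 1.62 in members and 1.43 in all other barcodes, where it had 4400 CPM in the nephrectomy and 3067 CPM in the sham library. The podocyte gene Nphs1 had 9 UMIs in nephrectomy members and 1 UMI in sham members. Cldn8, a claudin of the distal tight junction, had 25.03 CPM in nephrectomy and 40.6 CPM in sham members (ratio 0.617, 0.421 to 0.907).

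Across all genes, a rule named the extremes: at least 100 UMIs over both libraries, a ratio of at least 2 either way, at least 10 member nuclei and a member CPM at or above that of all other barcodes in the library where the gene was higher. At a ratio of 2, 154 of the 8142 genes (1.89%) were higher and 173 (2.12%) lower, and 33 higher and 17 lower genes met the whole rule.

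Rad51b, a gene of DNA repair by homologous recombination, had 132 UMIs in 20 nephrectomy nuclei and 7 UMIs in 6 sham nuclei, a ratio of 10.3 (4.86 to 26.1). The Rad51b ratio was 2.18 in all other barcodes. Cenpp, a centromere protein gene, had 152 nephrectomy and 18 sham UMIs, a ratio of 4.61 (2.82 to 7.99), with 63.9 CPM in nephrectomy and 0 CPM in sham Slc8a1-rich nuclei. In Slc8a1-poor nuclei, which held 14 of the 18 sham UMIs, Cenpp had 58.5 CPM in nephrectomy and 54.7 CPM in sham nuclei, a ratio of 1.07 (0.542 to 2.21), and in distal convoluted tubule nuclei its ratio was 0.918.

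Ror2, a receptor for WNT5A, had 39.0 CPM in nephrectomy and 10.5 CPM in sham members, a ratio of 3.71 (2.10 to 7.04). Btc, betacellulin, a ligand of the EGF receptor family, had 40.2 CPM in nephrectomy and 14.3 CPM in sham members, a ratio of 2.82 (1.71 to 4.88). Of its UMIs, 64 of 98 nephrectomy and 13 of 19 sham UMIs lay in Slc8a1-poor nuclei, where the ratio was 2.73 (1.49 to 5.41). In barcodes of the principal cell rule Btc had 353 CPM in the nephrectomy and 327 CPM in the sham library. The Btc ratio there was 1.08 (0.772 to 1.52), and 0.788 (0.348 to 1.86) in distal convoluted tubule nuclei. Sh3rf3 had 66.1 CPM in nephrectomy and 23.3 CPM in sham members, a ratio of 2.84 (1.92 to 4.31). Outside the members Sh3rf3 ran the other way, with 6 nephrectomy and 18 sham UMIs in distal convoluted tubule nuclei, a ratio of 0.170 (0.0553 to 0.447). Kcnh5, a voltage-gated potassium channel gene, lay in the Slc8a1-poor range, at 340 CPM in nephrectomy and 109 CPM in sham nuclei. In barcodes of the principal cell rule it had 246 CPM in the nephrectomy and 360 CPM in the sham library, a ratio of 0.683 (0.473 to 0.980), and in members with no Slc12a3 and no Trpm6 UMI its ratio was 1.40. Further higher genes were Ranbp17, Kif9, Cyp2j7, Coro2a and Tmtc2, with ratios from 2.49 to 3.28. Cyp2j7 belongs to a cluster of similar cytochrome P450 genes and its counts are uncertain for that reason.

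Among the lower genes Defb1, beta-defensin 1, an antimicrobial peptide of the distal tubule (chromosome 8, 21776599 to 21795185), had the most UMIs. It had 697 CPM in nephrectomy members and 1675 CPM in sham members, a ratio of 0.416 (0.390 to 0.443). The ratio was 0.521 in Slc12a3-bearing, 0.298 in Slc8a1-rich and 0.779 in Slc8a1-poor nuclei. Distal convoluted tubule nuclei had 822 CPM in the nephrectomy and 1671 CPM in the sham library, a ratio of 0.492 (0.451 to 0.537). Barcodes of the principal cell rule had 42 nephrectomy and 57 sham UMIs, a ratio of 0.686 (0.449 to 1.04), and all other barcodes together had a ratio of 0.642. The differences among these ratios were not tested.

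Trim43c had 16 CPM in nephrectomy and 58.6 CPM in sham members, a ratio of 0.273 (0.181 to 0.406), and has close paralogs. Ier3, an immediate early gene, had 57.9 CPM in nephrectomy and 146 CPM in sham members, a ratio of 0.395 (0.316 to 0.493). The proton pump subunits Atp6v1g3 and Atp6v1f had ratios of 0.391 (0.264 to 0.575) and 0.472 (0.355 to 0.626). Atp6v1g3, a marker of intercalated cells, was found in 27 nephrectomy and 22 sham members, and 1 sham nucleus held 13 of its 67 sham UMIs. In all other barcodes the ratio was 1.28 (1.16 to 1.42) for Atp6v1g3 and 0.557 (0.513 to 0.604) for Atp6v1f. Dnajb11, a co-chaperone of the endoplasmic reticulum, had a ratio of 0.389 (0.255 to 0.587), and 0.900 in the members with no Slc12a3 and no Trpm6 UMI. Shisa4, Piga, Dancr and Eif3c completed the lower genes, with ratios from 0.364 to 0.410. Arntl and Npas2, the other lower genes, are genes of the circadian clock.

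**Figure D4:**
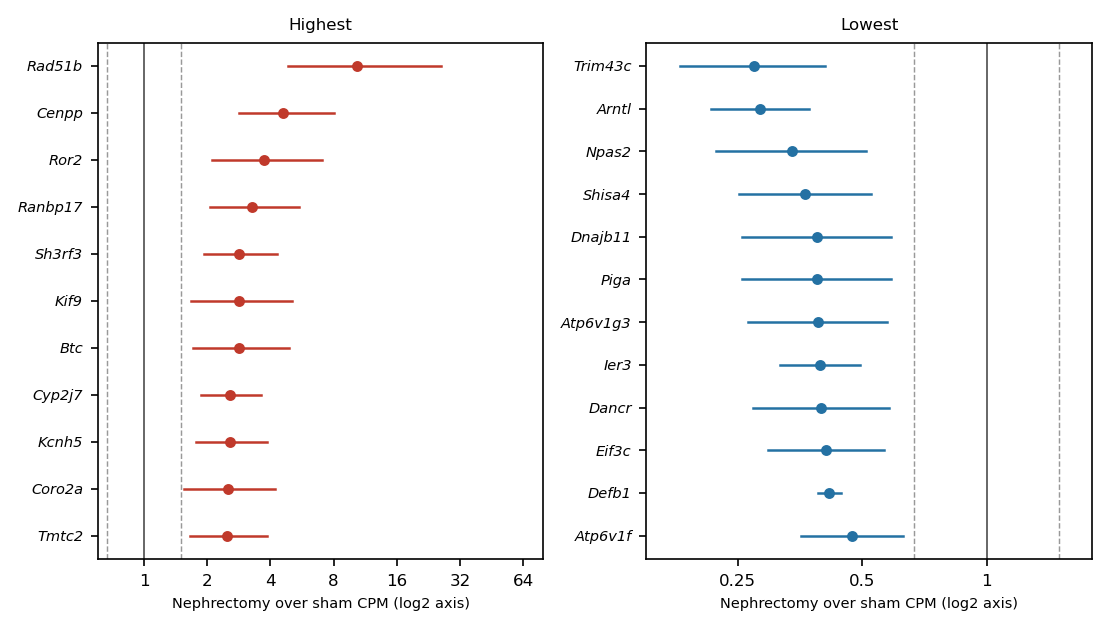
Ratio of nephrectomy over sham CPM (log2 axis) in connecting tubule nuclei for 11 of the highest genes and the 12 lowest by the naming rule, with 95% counting intervals. Rad51b stands farthest right, with a wide interval from 7 sham UMIs, and Defb1 has the narrowest interval of the lower genes.

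Genes of the circadian clock were called in both directions. The labels do not give the hour of collection, so a difference in that hour cannot be told apart from surgery here. The transcription factors BMAL1 (gene Arntl) and CLOCK or NPAS2 drive the Per, Cry and Nr1d genes and the output factors Dbp, Tef and Hlf, whose products feed back on them. Of 14 tested genes, 5 were called higher and 2 lower, with a median log2 ratio of 0.52. Arntl (chromosome 7, 113207465 to 113314126) had 84 UMIs in 38 nephrectomy nuclei and 162 UMIs in 83 sham nuclei. That was 34.5 CPM in nephrectomy and 122 CPM in sham members, a ratio of 0.283 (0.215 to 0.371). The Arntl ratio was 0.168 in Slc12a3-bearing, 0.385 in Slc8a1-rich and 0.1997 in Slc8a1-poor nuclei, and 0.337 (0.222 to 0.509) in distal convoluted tubule nuclei. Over all other kept barcodes, Arntl had 25.6 CPM in the nephrectomy and 38.4 CPM in the sham library, a ratio of 0.667.

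Npas2 had 16 CPM in nephrectomy and 47.3 CPM in sham members, a ratio of 0.338 (0.221 to 0.512), but 1.01 in the members with no Slc12a3 and no Trpm6 UMI. Clock had 118 CPM in nephrectomy and 168 CPM in sham members, a ratio of 0.705 (0.590 to 0.844). On the other side, Cry2 had 22.2 CPM in nephrectomy and 7.51 CPM in sham members, a ratio of 2.95 (1.49 to 6.50). Dbp had 25.4 CPM in nephrectomy and 12.8 CPM in sham members, a ratio of 1.99 (1.15 to 3.63). Per3 had 68.5 CPM in nephrectomy and 42.1 CPM in sham members, a ratio of 1.63 (1.197 to 2.25). Nr1d2, which codes for the repressor REV-ERB beta, had 99.7 CPM in nephrectomy and 62.4 CPM in sham members, a ratio of 1.60 (1.24 to 2.08), and Tef had a ratio of 1.59 (1.25 to 2.06). Per1, Per2, Nr1d1, Rora, Hlf and Bhlhe40 had ratios from 1.07 to 1.48. Per3, Nr1d2 and Tef lost the call in some settings, with ratios of 1.195 and 1.07 for Per3 and Nr1d2 in members with no Slc12a3 and no Trpm6 UMI, and 1.14 for Tef without the limit on proximal tubule genes. The median log2 ratio of the list was 0.45 in distal convoluted tubule nuclei and 0.03 in all other barcodes.

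Promoters of Per3 and Arntl are shown because these genes were called in opposite directions and hold clock motifs; they were picked after their values were seen. Sequences are RefSeq on GRCm38.p6. The 250 bases before the start of Per3, chr4:151044666-151044915 on the minus strand, are given with 2 matches to TTATGNAA, the D-box bound by Dbp, Tef and Hlf, in capitals.
Per3: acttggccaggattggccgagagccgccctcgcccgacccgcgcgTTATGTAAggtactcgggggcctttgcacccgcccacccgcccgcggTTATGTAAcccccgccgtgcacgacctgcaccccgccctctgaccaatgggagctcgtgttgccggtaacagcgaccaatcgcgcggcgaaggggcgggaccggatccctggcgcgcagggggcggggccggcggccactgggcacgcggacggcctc
The 30 bases chr7:113207530-113207559 on the plus strand of Arntl hold AGGTCA, in capitals, the core of sites bound by REV-ERB and ROR factors.
Arntl: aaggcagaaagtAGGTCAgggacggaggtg
The Per3 matches begin 205 and 158 bases before the start, and the Arntl match begins 32 bases after the start used here. On both strands and over windows of 300 bases, TTATGNAA occurred in 3.38% of 32851 promoters, AGGTCA in 16.3% and CACGTG, the E-box, in 7.15%. Of 16 clock genes with a promoter in the table, 2 held TTATGNAA, 5 held AGGTCA and 5 held CACGTG in at least 1 of up to 3 windows per gene. These counts are per gene and the shares above are per promoter, so they are not directly comparable. A match describes these letters and no binding was measured.

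**Figure D5:**
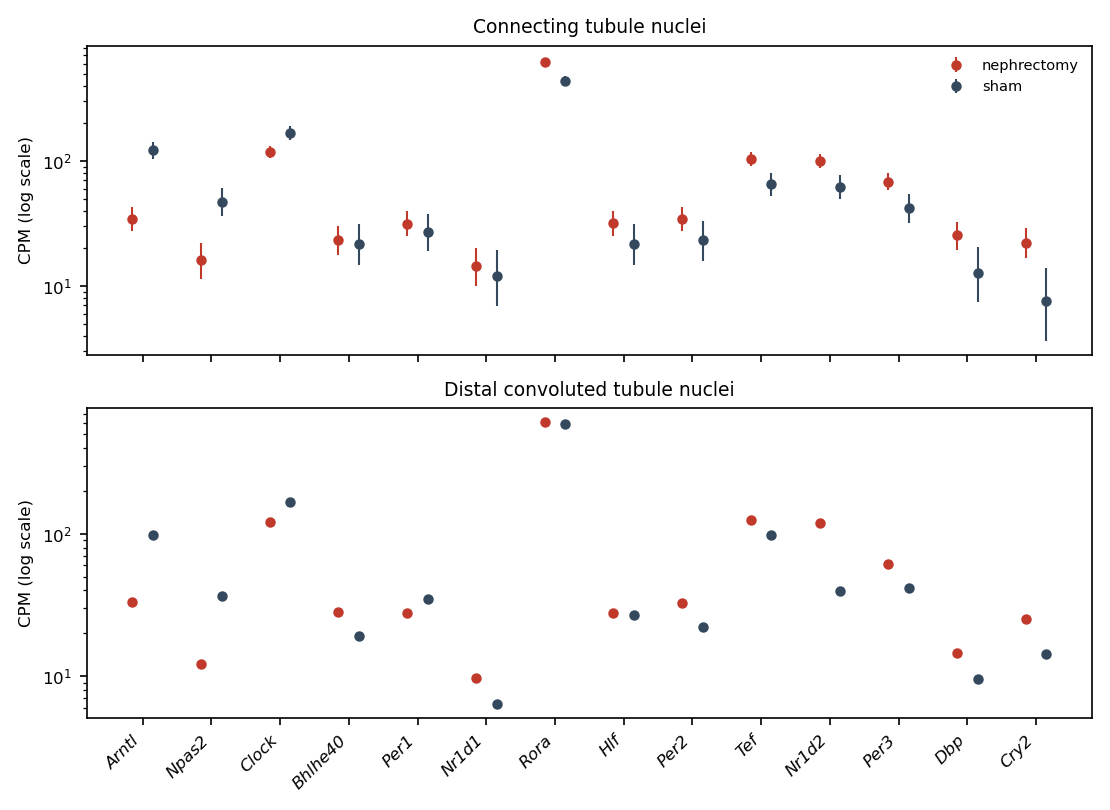
Summed UMIs per 1000000 (CPM, log scale) of the 14 tested clock genes, ordered by ratio, in connecting tubule nuclei (top, with 95% Poisson intervals) and in distal convoluted tubule nuclei (bottom), nephrectomy left of sham. Arntl, Npas2 and Clock are lower in the nephrectomy library in both panels, and Cry2, Dbp, Per3 and Nr1d2 are higher in both.

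The immediate early and stress list had 11 tested genes, of which 0 were called higher and 4 lower, with a median log2 ratio of -0.30. The lower genes were Ier3 and the chaperone genes Hspa5, Hspa8 and Hsp90ab1, while Klf9, a glucocorticoid-induced factor, had a ratio of 1.33. Hspa5, the main chaperone of the endoplasmic reticulum, had 27.5 CPM in nephrectomy and 72.9 CPM in sham members, a ratio of 0.377 (0.272 to 0.520), and 0.399 in all other barcodes. Hspa8 had 87.4 CPM in nephrectomy and 177 CPM in sham members, a ratio of 0.493 (0.408 to 0.596), and 0.482 in all other barcodes. The co-chaperone gene Dnajb11 had a ratio of 0.507 (0.454 to 0.567) in all other barcodes, against 0.389 in members. Fos, Egr1, Jun and Ier2 had 2, 4, 8 and 8 UMIs in nephrectomy members and 0, 0, 13 and 12 in sham members.

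Most genes of energy metabolism were not called. All 27 nuclear genes of oxidative phosphorylation could be tested, of which 0 were called higher and 4 lower, with a median log2 ratio of -0.36. The called genes were Cycs, cytochrome c, with a ratio of 0.415 (0.320 to 0.537), Ndufa4 with 0.580, Atp5j with 0.601 and Cox4i1 with 0.601. The median log2 ratio of the list was -0.34 in distal convoluted tubule nuclei and -0.34 in all other barcodes. Mitochondrially encoded genes had a median log2 ratio of -0.20 over 11 tested, with mt-Nd3 called higher at 1.65 (1.33 to 2.07). The median share of mitochondrial UMIs was 0.457% in nephrectomy and 0.502% in sham members. Glycolysis and fuel choice genes had 1 higher and 3 lower calls among 23 tested. Ldha, lactate dehydrogenase A, had a ratio of 0.491 (0.343 to 0.702), and Pdk4, the kinase that turns off pyruvate dehydrogenase, had 46.4 CPM in nephrectomy and 19.5 CPM in sham members, a ratio of 2.37 (1.54 to 3.79). Pdk4 had a ratio of 4.72 in all other barcodes, and 0.892 in members thinned to 1000 UMIs each.

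The study centred on Csgalnact1, which starts chondroitin sulfate chains, and on versican. Both were rare in members. Csgalnact1 had 31 UMIs in 12 nephrectomy nuclei and 18 UMIs in 10 sham nuclei, or 12.7 CPM and 13.5 CPM, a ratio of 0.941 (0.510 to 1.79). Vcan had 10 nephrectomy and 7 sham UMIs. No difference in either was detectable at this depth. Of the 22 genes of chondroitin sulfate synthesis 6 could be tested, of which 0 were called higher and 4 lower, with a median log2 ratio of -0.67. Over all 8142 tested genes 9.25% were called lower, and the list was not tested against that share. Xylt1, which adds the first sugar of the linker, had 43.5 CPM in nephrectomy and 86.4 CPM in sham members, a ratio of 0.503 (0.383 to 0.661). The sulfotransferases Chst11 and Ust had ratios of 0.532 (0.331 to 0.854) and 0.590 (0.368 to 0.949), from 38 and 40 nephrectomy and 39 and 37 sham UMIs, and without the Slc8a1-poor nuclei the Chst11 ratio was 0.802. B3gat3 had a ratio of 0.666, at the threshold of the call, and Fam20b, the linker kinase, had 1.21.

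Matrix genes gave 2 higher and 0 lower calls among 12 tested of 34 listed, with a median log2 ratio of 0.25. Lamc1, a laminin chain of basement membranes, had 93.1 CPM in nephrectomy and 58.6 CPM in sham members, a ratio of 1.59 (1.22 to 2.08). Spock3, a proteoglycan gene, had 82.1 CPM in nephrectomy and 38.3 CPM in sham members, a ratio of 2.14 (1.57 to 2.97). Spock3 lay in the Slc8a1-poor nuclei, and without them its ratio was 1.09. Col4a3 and Col4a4, collagen IV chains, had ratios of 0.889 (0.823 to 0.961) and 1.09 (1.02 to 1.16). Genes of TGF-beta and BMP signalling gave 1 higher and 3 lower calls among 23 tested, with Smad7, an inhibitor of the pathway, at 0.665 (0.538 to 0.821; 1.03 after thinning) and Tgfbr1 at 1.03 (0.901 to 1.18).

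Growth factor genes gave 2 higher and 3 lower calls among 15 tested. Besides Btc and Egf these were Erbb2, with 42 nephrectomy and 11 sham UMIs and a ratio of 2.09 (1.06 to 4.49), Fgfr2 with 0.626 (0.578 to 0.678) and Igfbp5 with 0.636 (0.466 to 0.870). The Igfbp5 ratio turned to 1.31 with equal weight per nucleus, 1.23 in members with no Slc12a3 and no Trpm6 UMI, and 1.49 after thinning to 1000 UMIs. Fgfr2 had 534 CPM in nephrectomy and 853 CPM in sham members, and was lower in each of the 3 ranges, with ratios of 0.699, 0.556 and 0.598 in Slc12a3-bearing, Slc8a1-rich and Slc8a1-poor nuclei.

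Many tubular injury genes were rare in members, but the list as a sum was not. It came to 1883 CPM in nephrectomy and 2009 CPM in sham members. All other nephrectomy and sham barcodes had 1910 CPM and 1995 CPM. Of the 32 listed, 11 could be tested, of which 1 was called higher and 2 lower, with a median log2 ratio of 0.03. Havcr1 (KIM-1) had 4 nephrectomy and 3 sham UMIs, Lcn2 (NGAL) had 5 and 1, and Krt20 had 0 in both. Spp1, osteopontin, had 492 CPM in nephrectomy and 454 CPM in sham members, a ratio of 1.08 (0.983 to 1.198), while in all other barcodes it had 423 CPM in the nephrectomy and 224 CPM in the sham library, a ratio of 1.89. Prom1 was called higher at 1.91 (1.37 to 2.71), and its ratio was 1.15 without the Slc8a1-poor nuclei. Igfbp7 had 457 CPM in nephrectomy and 718 CPM in sham members, a ratio of 0.636 (0.583 to 0.695), and Cd24a had 0.658 (0.421 to 1.03). Of the interferon and antigen presentation genes 7 could be tested, of which 1 was called higher (B2m, 2.07, 1.23 to 3.63) and 2 lower (Cd74 and H2-D1, at 0.388 and 0.562).

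Markers of cycling cells came from a few nuclei. Top2a had 58 UMIs in 5 nephrectomy nuclei and 0 in sham members, and Mki67 had 51 UMIs in 14 nephrectomy nuclei and 13 UMIs in 12 sham nuclei. Of the Top2a and Mki67 UMIs, 92 lay in 2 nephrectomy nuclei. Without these 2 nuclei the Mki67 ratio was 0.512.

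Markers of other cell types moved between the libraries too. The 18 proximal tubule genes listed summed to 1813 CPM in nephrectomy and 3053 CPM in sham members, and to 13851 CPM and 21651 CPM in all other nephrectomy and sham barcodes. Kap, an androgen-regulated gene of the proximal tubule, had 317 CPM in nephrectomy and 1812 CPM in sham members, a ratio of 0.175. Its level in all other barcodes was 1030 CPM in the nephrectomy and 5531 CPM in the sham library. Endothelial genes summed to 233 CPM in nephrectomy and 334 CPM in sham members, thick ascending limb genes to 189 CPM and 373 CPM, immune genes to 56.6 CPM and 114 CPM, and fibroblast genes to 60.3 CPM and 41.3 CPM. A free RNA estimate from the 18 proximal tubule genes came to 14.1% of nephrectomy and 14.7% of sham member UMIs. It counted every UMI of these genes in members as free RNA and used the sum of all deposited barcodes as the profile. No profile of empty droplets was used, and the membership rule had limited Slc34a1, Slc13a1 and Slc5a12 in members. The part of these other cell types in the ratios above was not tested.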

How the data were processed

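Per the file headers and the submitters' processing notes, the authors deposited UMI counts per gene and barcode made with Cell Ranger on mm10; the notes give version 7.1.0 and the header 7.0.1. Barcode calling and the use of intronic reads are not given in the sources used here. Positions are from GENCODE M21 (GRCm38), with 32158 of 32285 identifiers found.

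The membership rule was applied as written. Members and gene lists were chosen with earlier results of these data known. Of the kept barcodes, none was removed as a doublet. Scrublet's own threshold called 0 nuclei in either library, so it did not work here. As an alternative, barcodes above a cut set for the highest 3% of scores were left out. These were 76 nephrectomy and 71 sham deposited barcodes, of which only 4 nephrectomy and 2 sham barcodes were members. Ratios have exact conditional binomial intervals, CPM Poisson intervals, shares Clopper-Pearson intervals and differences Newcombe intervals. A count under 3 was set to 3.

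Named genes were the 12 highest and 12 lowest by the rule in the report, without predicted genes, plus the 15 defining genes, any list member, Csgalnact1 and Vcan. A few genes the rule names are not reported here; they stay in the counts and medians of lists. Distal convoluted tubule nuclei had at least 0.2% Slc12a3 and Trpm6, above the member markers. The 3 ranges and the neighbour rules were chosen after the data were seen. The ratio was run on simulated independent Poisson counts with planted fold changes. These counts held no spread between nuclei or animals, so they cannot show how reliable the calls here are. TMM factors came from edgeR 4.0.16 in R 4.3.3, doublet scores from scanpy 1.11.5 and intervals from scipy 1.17.1, under Python 3.11.15.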

Additional observations from a re-analysis of the deposited data

Results flagged for a closer look

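In barcodes of the principal cell rule, mt-Nd3 was lower in the nephrectomy library, with a ratio of 0.512 (0.290 to 0.882), while in connecting tubule nuclei it was higher, with a ratio of 1.65 (1.33 to 2.07). The opposite directions were not tested against each other, since each group is 1 library. The principal cell rule held 30 nephrectomy and 42 sham barcodes.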

How the results depend on the processing

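The share difference was between 1.15 and 2.06 points over 6 alternatives to the rule and filters. The counts of genes at least 1.5-fold higher and lower were 1646 and 2324 of 14297 with no UMI minimum, 310 and 258 of 3244 in members with no Slc12a3 and no Trpm6 UMI, and 152 and 87 of 1432 in members thinned to 1000 UMIs. These alternatives change how many genes can be tested. Without the limit on proximal tubule genes, a setting added after seeing the data, 1162 of 9666 genes were lower. With TMM factors 719 genes were higher and 624 lower, and with median-of-ratios factors 711 higher and 633 lower. Of 89 called genes followed over up to 14 alternatives, 10 changed direction under at least 1, among them 1 of 23 named genes. A gene was skipped in a setting that left it under 20 UMIs over both libraries. Of 96 followed genes, called or not, thinning left 26 within their main interval, 15 outside it and 4 reversed. The others were skipped there. In members with no Slc12a3 and no Trpm6 UMI, 44 stayed within it, 32 moved outside it and 2 reversed. Equal weight per nucleus gave Bmp6 1.08 and Igfbp5 1.31. Members with no Slc12a3 and no Trpm6 UMI gave Npas2 1.01 and Igfbp5 1.23. Thinning gave Ehf 0.790, Smad7 1.03, Igfbp5 1.49 and Pdk4 0.892. Without the 2 nuclei rich in Top2a and Mki67, Mki67 was at 0.512. Without the proximal tubule limit Slc26a4 was at 1.19, Bmp6 at 1.02, Cubn at 0.957 and Ghr at 0.838. The cause of these changes was not tested. The median log2 ratio of the aldosterone list was -0.01 after free RNA was subtracted, and that of the clock list ran from 0.17 to 0.59. Depth limits genes with few UMIs, such as Csgalnact1 and Vcan, and the size of a ratio from under 20 UMIs in 1 library. No paired analysis was possible because each group is 1 library and the labels share no replicate numbers.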
